A study of Mus musculus with 52 samples.

Results

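The genes followed here are 10 that make, break down or sense prostaglandins, namely Ptgs1, Ptgs2, Ptges, Ptgis, Hpgds, Hpgd, Ptger1, Ptger2, Ptger3 and Ptger4. They were chosen by name from the 27525 genes in the table of normalized counts for 32 tumors, each matched 1 identifier, and all 10 passed the filter on low values in every comparison. The tumors were grown in male C57BL/6NHsd mice 8 to 10 weeks old from KPC cells (KxPxCx), a pancreatic cancer line from mice with mutant Trp53 and Pdx1-Cre, injected under the skin of the flank, so that every group carried the same line at a site outside the pancreas. There were 4 groups of 8 tumors: untreated mice, mice given the STING agonist ADU-S100 once into the tumor (2 μg), mice given the agonistic anti-LTβR antibody 4H8 into the peritoneum (4 doses of 100 μg), and mice given both agents (the combination). All tumors were removed on day 14 and each gave 1 bulk poly(A) RNA library. The labels number the tumors within a group and do not name the mice, so the p-values measure the spread between these samples.

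Prostaglandins are short-lived lipids made from arachidonic acid. A cyclooxygenase (Ptgs1 or Ptgs2) makes the common precursor, terminal synthases such as Ptges, Ptgis and Hpgds turn it into prostaglandin E2, prostacyclin and prostaglandin D2, and the dehydrogenase Hpgd starts their inactivation. Prostaglandin E2 acts on 4 receptors, of which Ptger2 and Ptger4 raise cyclic AMP, Ptger3 mostly lowers it and Ptger1 raises calcium. In tumors, prostaglandin E2 from Ptgs2 is widely studied as a mediator of inflammation and of reduced immune attack.

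In the combination group, 6 of the 10 genes were higher than in untreated tumors, 1 was lower and 3 did not pass the test. The genes that rose were the synthases Ptges, Ptgis and Hpgds, the dehydrogenase Hpgd and the receptors Ptger2 and Ptger4. Ptgs1 fell. Ptgs2, Ptger1 and Ptger3 did not pass. The test was limma on log2(normalized count + 1) with Benjamini-Hochberg adjustment over 16909 genes, and a gene passed at an adjusted p below 0.05. Of all genes tested, 19.6% were higher and 23.6% were lower by the same rule. The median log2 fold change was 0.42 over the 10 genes and -0.02 over all genes. With the 2-fold limit added, 1 gene (Ptgis) passed, beside 5.16% of all genes. Every fold change below is on the log2(normalized count + 1) scale, which understates the change of low genes.

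**Figure D1:**
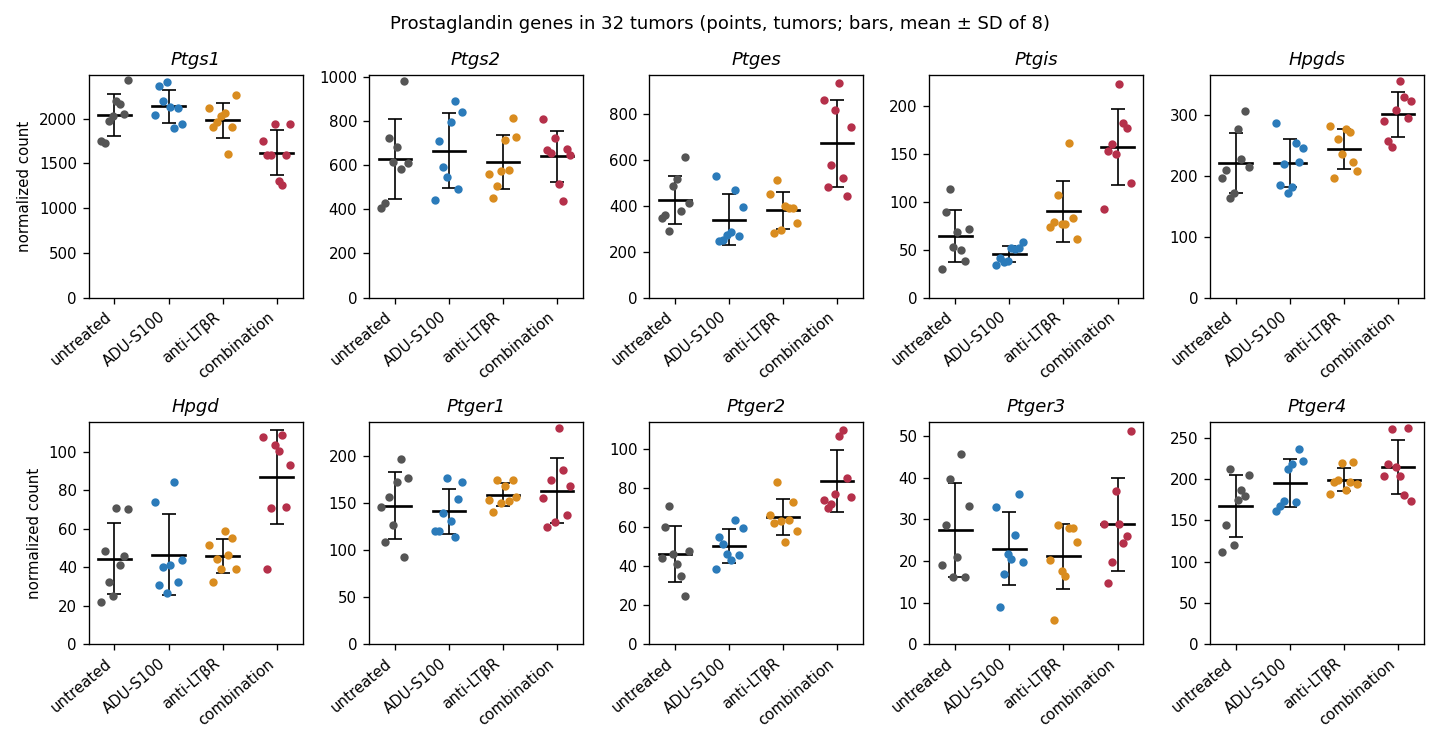
Normalized counts of the 10 genes (vertical axis, from 0) in the 4 treatment groups, with 1 point for each tumor and bars for the mean and SD of 8 tumors. For Ptgis and Ptger2, 7 of 8 combination tumors lay above every untreated tumor, and for Ptgs2 the 4 groups overlapped.

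Of the cyclooxygenases, Ptgs1 passed and Ptgs2 did not, and a difference between them was not tested. Ptgs1 (GRCm38 chr2:36230426-36252272, plus strand), the constitutively expressed cyclooxygenase, ranged from 1725 to 2433 normalized counts in untreated tumors, with a median of 2041. In combination tumors it ranged from 1256 to 1941, with a median of 1598. The groups overlapped, but 5 of 8 combination tumors lay below every untreated tumor. The mean fell from 2042 ± 235 to 1622 ± 255 (SD, n = 8 each), and the log2 fold change was -0.34 with a standard error of 0.10 (limma, adjusted p = 0.00899). Ptgs2 (chr1:150100031-150108227, plus strand), the inducible cyclooxygenase, lay between 406 and 983 without treatment (median 615) and between 439 and 812 under the combination (median 663). No combination tumor lay above or below all untreated tumors. Its mean was 630 ± 181 in untreated and 643 ± 116 in combination tumors, and the 95% interval of the log2 fold change ran from -0.28 to 0.40 (limma, adjusted p = 0.799), so that a change of 2-fold in either direction lay outside the interval.

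Ptges (chr2:30889471-30929863, minus strand), the inducible prostaglandin E synthase, ranged from 291 to 612 normalized counts in untreated tumors, with a median of 395. In combination tumors it ranged from 445 to 936, with a median of 661. Of the 8 combination tumors, 4 lay above every untreated tumor, and 5 of 8 untreated tumors lay below every combination tumor. The means were 425 ± 105 and 673 ± 190, which gave a log2 fold change of 0.65 with a standard error of 0.18 (limma, adjusted p = 0.00748).

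Ptges and Ptgs1 lie on the same chromosome and moved in opposite directions, and the 250 bases before their RefSeq starts (GRCm38.p6) are shown to set these neighbouring enzymes of the pathway side by side. Both are written 5′ to 3′ along the gene, with matches to GGGCGG, the GC box bound by Sp1, in capitals. The RefSeq start used for Ptges lies inside the longer gene of the GENCODE annotation. The stretches are chr2:30903298-30903547 on the minus strand for Ptges and chr2:36230176-36230425 on the plus strand for Ptgs1.
Ptges: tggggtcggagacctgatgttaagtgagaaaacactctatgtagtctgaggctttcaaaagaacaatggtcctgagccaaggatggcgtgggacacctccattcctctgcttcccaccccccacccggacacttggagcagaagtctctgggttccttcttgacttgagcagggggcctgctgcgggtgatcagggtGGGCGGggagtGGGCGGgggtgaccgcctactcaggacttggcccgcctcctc
Ptgs1: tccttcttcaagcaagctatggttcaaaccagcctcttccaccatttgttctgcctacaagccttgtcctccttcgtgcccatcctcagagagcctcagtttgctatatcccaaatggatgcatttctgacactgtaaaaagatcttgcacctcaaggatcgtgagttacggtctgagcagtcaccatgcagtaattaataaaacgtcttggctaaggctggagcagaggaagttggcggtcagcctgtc
The Ptges stretch held GGGCGG with first bases 53 and 42 bases before the start, and the Ptgs1 stretch held none on either strand. GGGCGG was added to the search after the sequences had been seen. On either strand it was present in the 250 bases before 32.742% of 32851 RefSeq starts, and among the 8 genes with a RefSeq promoter it was present for Ptgs2, Ptges, Hpgd, Ptger3 and Ptger4. The TATA box TATAAA (12.368% of starts), the cyclic AMP response element TGACGTCA (1.546%) and the NF-kB consensus (7.251%), also searched on both strands, had no match in these windows for the 8 genes.

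Ptgis (chr2:167191805-167240604, minus strand), the prostacyclin synthase, had the largest log2 fold change of the 10 genes in the combination group. It lay between 30.2 and 113 normalized counts without treatment (median 61.0) and between 92.3 and 223 under the combination (median 157). Of the 8 combination tumors, 7 lay above every untreated tumor. Its mean went up from 64.3 ± 27.4 to 157 ± 39.7, equal to a log2 fold change of 1.35 with a standard error of 0.24 (limma, adjusted p = 0.000378).

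Hpgds (chr6:65117293-65144908, minus strand), the hematopoietic prostaglandin D synthase, lay between 164 and 307 without treatment (median 213) and between 247 and 357 under the combination (median 303). Here 6 of 8 untreated tumors lay below every combination tumor. Its log2 fold change was 0.46 with a standard error of 0.12 (limma, adjusted p = 0.0057), from a mean of 222 ± 49.5 to 302 ± 36.7. The summed markers of mast cells, one of the cell types known to express it, ranged from 582 to 1375 (median 739) without treatment and from 246 to 535 (median 301) under the combination, and 5 of the 6 listed markers fell and 1 rose by the same test. Across the 32 tumors, with each group's mean removed, Hpgds and the mast cell sum had r = 0.326 and rho = 0.266 (permutation p = 0.0952 and 0.161, adjusted p = 0.25 and 0.331, r = 0.212 without 2 tumors). The part of mast cells in the Hpgds result was not tested.

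Hpgd (chr8:56294585-56321043, plus strand), which oxidizes prostaglandins in the first step of their inactivation, lay between 22.1 and 70.7 without treatment (median 43.6) and between 39.0 and 108 under the combination (median 96.5). Of the 8 combination tumors, 7 lay above every untreated tumor, and the exception was tumor 2. That tumor also had the lowest summed fibroblast markers of the combination tumors (103546). The part of fibroblasts in this value of 1 tumor was not tested. The mean of Hpgd, 86.7 ± 24.4 under the combination beside 44.5 ± 18.5 without treatment, gave a log2 fold change of 0.99 with a standard error of 0.26 (limma, adjusted p = 0.00597), which fell just short of the 2-fold limit.

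Of the prostaglandin E2 receptors, Ptger2 (chr14:44988195-45003820, plus strand) changed most. It lay between 24.9 and 71.0 without treatment (median 45.1) and between 69.5 and 110 under the combination (median 76.1). Of the 8 combination tumors, 7 lay above every untreated tumor and 7 of 8 untreated tumors lay below every combination tumor. Mean levels were 46.2 ± 14.2 and 83.6 ± 15.9, for a log2 fold change of 0.88 with a standard error of 0.18 (limma, adjusted p = 0.000971).

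Ptger4 (chr15:5206661-5244187, minus strand), the other receptor that raises cyclic AMP, lay between 111 and 212 without treatment (median 177) and between 173 and 262 under the combination (median 209). The groups overlapped, and 4 of 8 combination tumors exceeded all untreated ones. Its log2 fold change was 0.38 with a standard error of 0.14 (limma, adjusted p = 0.035). This call was close to the threshold. It was lost when untreated tumor 1, 2 or 4 or combination tumor 2, 3, 4 or 7 was left out, with log2 fold changes of 0.30 to 0.43 and adjusted p of 0.0185 to 0.0707 over all 16 omissions, and with the summed skeletal muscle markers in the fit (0.32, adjusted p = 0.0836).

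Ptger1 (chr8:83666678-83672753, plus strand) and Ptger3 (chr3:157566892-157645888, plus strand) gave no call. Ptger1 was at 147 ± 35.5 in untreated and 163 ± 34.5 in combination tumors, with a log2 fold change of 0.16 and a 95% interval from -0.17 to 0.50 (limma, adjusted p = 0.432). Ptger3 was the lowest of the 10 genes, at 27.4 ± 11.2 and 28.8 ± 11.2, with a log2 fold change of 0.08 and an interval from -0.48 to 0.64 (limma, adjusted p = 0.829). The interval of Ptger3 was wider than that of Ptgs2, so its level was less well resolved.

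Exons of several of these genes overlap genes on the opposite strand. Ptger4 shares bases with Ttc33 (mean 409 normalized counts over 32 tumors), Ptger2 with Gm17173 (37.5) and Gm49364 (28.6), and Ptgs1 with Gm43621 (31.8). The libraries kept strand, but the strand setting of the counting is not given in the sources used here, so that the values of Ptger1, Ptger2, Ptger4 and Ptgs1 may hold reads from the other strand.

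Either agent alone changed few of these genes. Against untreated tumors, ADU-S100 gave 0 of 10 genes in either direction, beside 0.00% of 16613 genes. Over all genes, limma gave 2408 with an unadjusted p below 0.05, edgeR on recovered reads called 0 higher and 1 lower, and DESeq2 called 16 higher and 7 lower. Ptges had a mean of 340 ± 110 after ADU-S100 (range 247 to 530, median 280) and Ptgis of 45.2 ± 8.48 (34.2 to 57.4, median 46.0). Their log2 fold changes of -0.35 and -0.41 did not pass (limma, adjusted p = 0.366 and 0.386), and their 95% intervals ran from -0.73 to 0.04 and from -0.89 to 0.07. With the summed keratinocyte markers in the fit the Ptges value was -0.14, and with the summed skeletal muscle markers the Ptges and Ptgis values were -0.18 and -0.63. Ptgs2 was at 666 ± 170 (441 to 894, median 653), with a log2 fold change of 0.09.

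Anti-LTβR alone gave 1 of 10 genes higher and 0 lower, beside 7.21% and 8.10% of 16691 genes, a share near the background. That gene was Ptger2, which ranged from 52.5 to 83.2 with a median of 63.5. The ranges overlapped, with 2 of 8 anti-LTβR tumors above every untreated tumor, and the log2 fold change was 0.53 with a standard error of 0.17 (limma, adjusted p = 0.0449). The call was lost when any of 13 of the 16 tumors was left out, the exceptions being untreated tumors 2 and 3 and anti-LTβR tumor 5, and adjusted p ran from 0.0157 to 0.0798 over the omissions. It was also lost without the filter on low values (adjusted p = 0.0663), by edgeR (0.0665) and when the replicate block was fitted (0.0631). Ptgis, at 89.9 ± 31.6 (61.3 to 161, median 78.1), had a log2 fold change of 0.53 that did not pass (limma, adjusted p = 0.145), and 0.31 with the summed skeletal muscle markers in the fit.

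**Figure D2:**
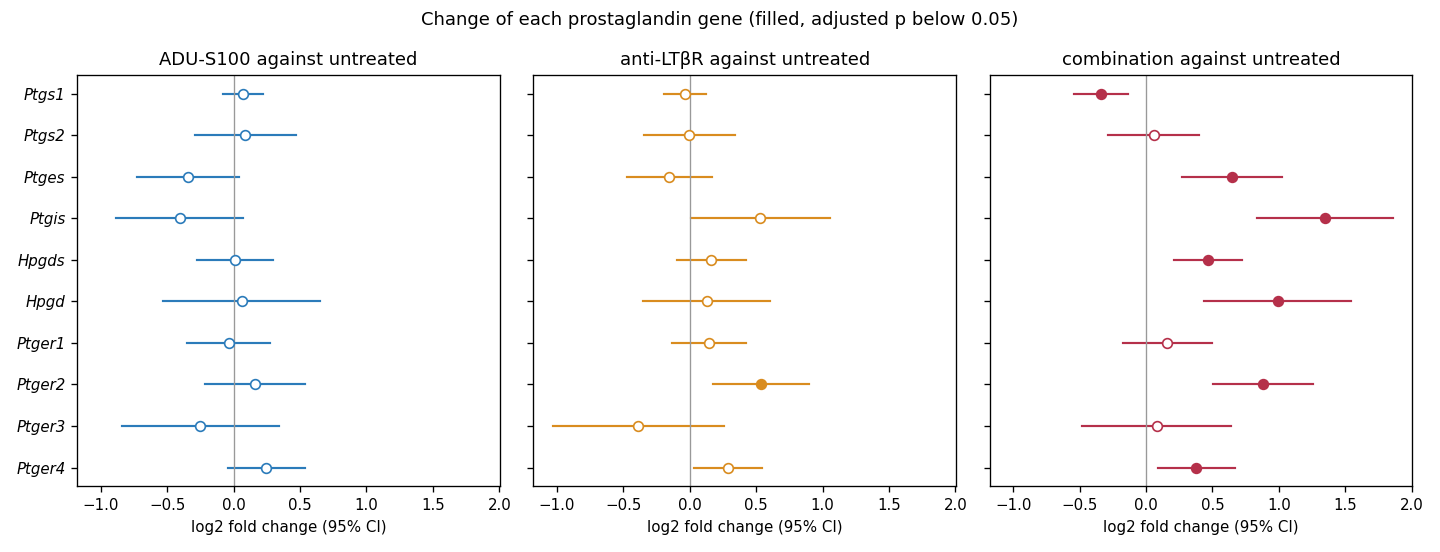
Log2 fold change against untreated tumors (horizontal axis) of the 10 genes with 95% confidence intervals, for ADU-S100, anti-LTβR and the combination, 8 tumors a group. Filled points passed at an adjusted p below 0.05, which were 0, 1 and 7 genes, and the 3 comparisons share the untreated tumors.

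The combination was then compared with each agent alone. Against anti-LTβR, 5 of 10 genes were higher and 1 was lower, beside 11.3% and 15.3% of 16932 genes. Ptges rose by 0.80 ± 0.17 (log2 fold change ± standard error, adjusted p = 0.00327), Ptgis by 0.82 ± 0.19 (0.00606), Hpgd by 0.87 ± 0.19 (0.00477) and Hpgds by 0.30 ± 0.09 (0.0236), by limma. Ptges ranged from 280 to 513 in anti-LTβR tumors, and 6 of 8 combination tumors lay above all of them. Ptger2 rose by 0.35 ± 0.12 (limma, adjusted p = 0.0389) and Ptgs1 fell by 0.30 ± 0.09 (limma, adjusted p = 0.0241).

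Some of these calls against anti-LTβR depended on single tumors or settings. Ptger2 lost its call without any of 9 tumors (anti-LTβR tumors 1, 2, 4, 5, 6 and 8 and combination tumors 5, 6 and 7), with adjusted p up to 0.08. Ptgs1 lost its call without anti-LTβR tumor 8 (adjusted p = 0.0504). With all 4 groups in a joint fit, Hpgds and Ptger2 had adjusted p of 0.0617 and 0.0958, and with the summed keratinocyte markers in the fit 0.0602 and 0.0579. The Ptger2 call was also lost without the filter on low values (0.0606) and with the replicate block (0.0823).

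Against ADU-S100, 5 of 10 genes were higher and 1 was lower, beside 20.2% and 26.0% of 16811 genes. Ptgis rose by 1.75 ± 0.16 (limma, adjusted p = 4.75e-06), and all 8 combination tumors (92.3 to 223) lay above every ADU-S100 tumor (34.2 to 57.4). Ptger2 rose by 0.72 ± 0.13 (limma, adjusted p = 0.000288), from 38.3 to 63.4 in ADU-S100 tumors with no overlap with the combination tumors. Ptges rose by 0.99 ± 0.20, Hpgd by 0.93 ± 0.26 and Hpgds by 0.45 ± 0.11, and Ptgs1 fell by 0.41 ± 0.09 (limma, adjusted p = 0.000659, 0.00685, 0.00247 and 0.00122 in this order). Between the single agents, 1 of 10 genes was higher with anti-LTβR than with ADU-S100, beside 3.38% of 16649 genes: Ptgis, by 0.94 ± 0.17 (limma, adjusted p = 0.00808), with every anti-LTβR tumor (61.3 to 161) above every ADU-S100 tumor.

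Whether the effect of ADU-S100 differed with and without anti-LTβR was tested with an interaction term over all 32 tumors. It was positive for Ptges (1.15 ± 0.26, adjusted p = 0.00287) and Ptgis (1.22 ± 0.30, adjusted p = 0.00584) and negative for Ptgs1 (-0.37 ± 0.12, adjusted p = 0.0279), by limma over 17649 genes. That is 3 of 10 genes in either direction, beside 18.4% of all genes. For Ptges the log2 fold change with ADU-S100 was -0.35 without the antibody and 0.80 with it, and for Ptgis it was -0.41 and 0.82. These 3 calls held under 9 other settings of the test, and with the 2-fold limit added those on Ptges and Ptgis held and that on Ptgs1 was lost. With the summed keratinocyte markers in the fit, the Ptges term was 0.71 (adjusted p = 0.0047). Single tumors were not left out of this test. Hpgd, with 0.80 ± 0.35, did not pass (adjusted p = 0.106), so that a difference between the settings was not shown for Hpgd, Hpgds or the receptors.

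**Figure D3:**
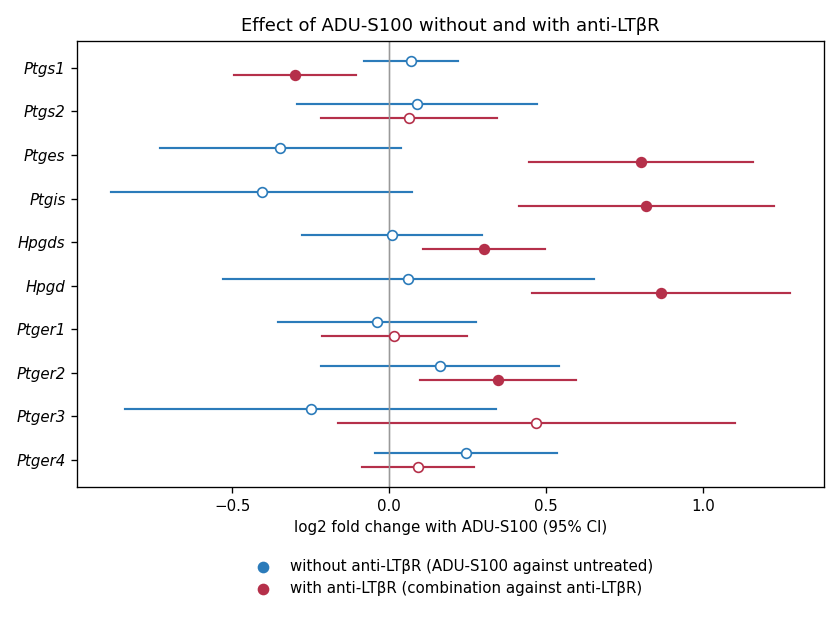
Log2 fold change with ADU-S100 (horizontal axis, 95% confidence intervals) of the 10 genes without anti-LTβR (ADU-S100 against untreated) and with it (combination against anti-LTβR), 8 tumors a group. Filled points passed at an adjusted p below 0.05. The intervals of Ptges, of Ptgis and of Ptgs1 did not overlap between the settings, with Ptges and Ptgis higher and Ptgs1 lower in the setting with anti-LTβR.

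Per length, Ptgs1 was the most abundant of the genes in untreated tumors, with a mean of 526 normalized counts per kb of exon, followed by Ptgs2 (138) and Ptges (108). Hpgds was at 34.5 per kb, while Ptger1, Hpgd, Ptger4 and Ptgis lay between 25.0 and 26.9 per kb, closer to each other than the SD of any of them. Ptger2 (8.89 per kb) and Ptger3 (4.82 per kb) were lowest. In combination tumors Ptgs1 remained first, at 418 per kb, and Ptges (171 per kb) stood above Ptgs2 (140 per kb). Ptgis reached 61.3 and Hpgd 51.5 per kb, above Hpgds (46.9 per kb).

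The rest of the pathway was read from 36 further eicosanoid genes. In combination against untreated tumors, 30 could be tested, of which 10 were higher, 5 were lower and 15 did not pass. The shares are to be read against 19.6% and 23.6% of all genes, and the median log2 fold change was 0.17 over the list and -0.02 over all genes. All 3 other prostanoid receptors that could be tested rose: Tbxa2r, the thromboxane receptor (1.48 ± 0.27, from 7.85 to 22.6 normalized counts), Ptgfr, the receptor for prostaglandin F (1.21 ± 0.29, from 15.1 to 36.0), and Ptgir, the prostacyclin receptor (1.01 ± 0.14, from 71.4 to 143). Their adjusted p in limma were 0.000491, 0.00333 and 6.45e-05. The synthase of prostacyclin and its receptor thus both rose. Ptgir ranged from 44.1 to 86.9 in untreated and from 111 to 169 in combination tumors, with no overlap.

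Among other prostanoid synthases, 3 rose, 2 fell and 1 did not pass, beside 19.6% higher and 23.6% lower of all genes. Prxl2b, a prostaglandin F synthase, rose by 0.94 ± 0.22, Cbr1, which can turn prostaglandin E2 into F2α, by 0.58 ± 0.11, and Tbxas1, the thromboxane synthase, by 0.48 ± 0.13. The other prostaglandin E synthases moved against Ptges: Ptges3, the cytosolic enzyme and cochaperone, fell by 0.26 ± 0.07 (limma, adjusted p = 0.00544), and Ptges2, a membrane-associated enzyme, fell by 0.28 ± 0.10 (adjusted p = 0.0382). The call on Ptges2 was lost without the filter on low values (adjusted p = 0.0531) and, among others, without untreated tumor 4 (0.0763).

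Upstream, the list for the release of arachidonic acid gave 2 genes higher and 2 lower of 7 tested, beside 19.6% and 23.6% of all genes. Pla2g4a, the cytosolic phospholipase A2 that supplies the cyclooxygenases, fell by 0.24 ± 0.04 (limma, adjusted p = 0.000521), from 1074 ± 53.6 to 911 ± 55.8. Pla2g2d, a secreted phospholipase, rose by 1.15 ± 0.26. Pla2g7, which was on this list although it hydrolyses platelet-activating factor, rose by 0.90 ± 0.15. Pla2g12a, another secreted enzyme, fell by 0.27 ± 0.10 (adjusted p = 0.0338), and edgeR did not call it (adjusted p = 0.0585). The Pla2g12a call was lost in 3 of 10 other settings of the test, edgeR among them. It was also lost in 7 of 16 omissions of a single tumor (limma, adjusted p up to 0.0695). Of 5 genes of inactivation and transport, 0 rose and 1 fell, beside the same shares of all genes. Zadh2, a prostaglandin reductase, fell by 0.36 ± 0.05 (limma, adjusted p = 5.95e-05), and the transporters Slco2a1 and Abcc4 did not pass (-0.11 and -0.15).

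In the leukotriene branch 2 of 9 genes rose and 0 fell, beside 19.6% and 23.6% of all genes. The share that rose was thus near the background. Ltc4s, the leukotriene C4 synthase, rose by 1.53 ± 0.34 (limma, adjusted p = 0.0017). Cysltr2, a receptor for cysteinyl leukotrienes, rose by 0.52 ± 0.18 (adjusted p = 0.0318). The Cysltr2 call was lost without the filter on low values (adjusted p = 0.0533) and without combination tumor 7 (0.0643), among others. Alox5 and Alox5ap, which start this branch, had values of -0.09 and 0.35 that did not pass (adjusted p = 0.771 and 0.0644). Ptgds, Ptgdr and Ptgdr2, the other prostaglandin D synthase and the receptors for prostaglandin D2, were among the 6 genes too low to test, with group means from 0.743 to 5.42 normalized counts.

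**Figure D4:**
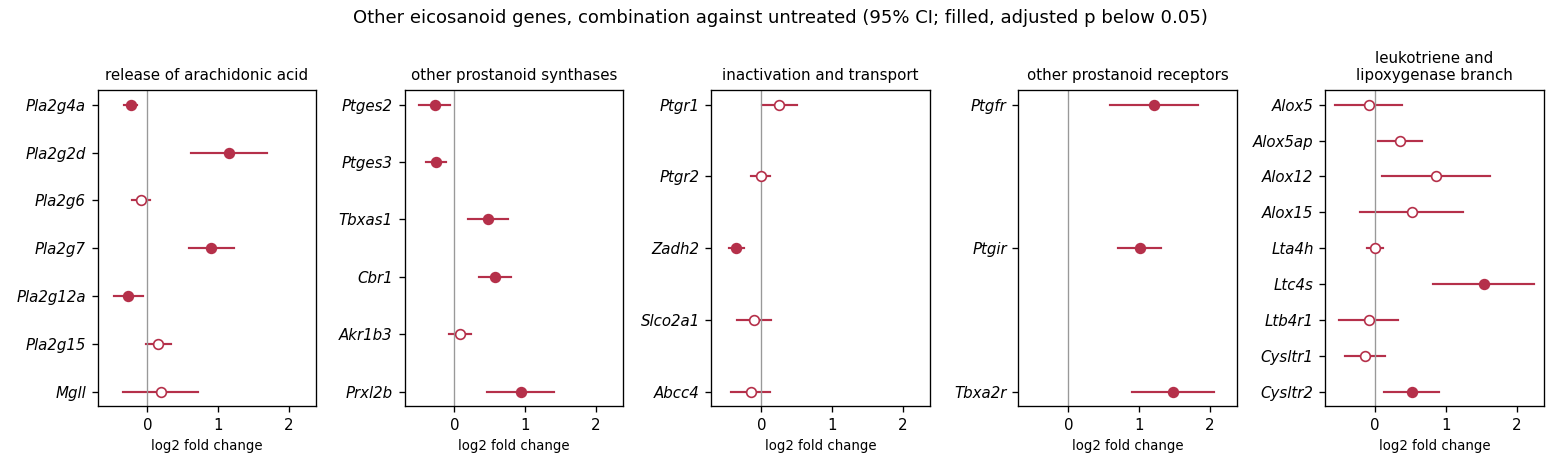
Log2 fold change between combination and untreated tumors (horizontal axis, 95% confidence intervals) of the 30 further eicosanoid genes that could be tested, in 5 panels by role, with 8 tumors a group. Filled points passed at an adjusted p below 0.05. All 3 receptors in the fourth panel lay to the right of 0, with values from 1.01 to 1.48.

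Against untreated tumors, anti-LTβR alone gave 3 of 29 tested genes higher and 4 lower, beside 7.21% and 8.10% of all genes. Pla2g7 rose by 0.45 ± 0.08 (limma, adjusted p = 0.00255) and Zadh2 fell by 0.21 ± 0.04 (adjusted p = 0.00737), and both calls held in every alternative except the 2-fold limit, which neither change reached. Ltc4s (0.97), Tbxas1 (0.42), Ltb4r1 (-0.63), Pla2g12a (-0.26) and Ptges3 (-0.21) passed by a narrow margin, with adjusted p between 0.032 and 0.0473. All 5 were lost without untreated tumor 4 and without anti-LTβR tumor 7, each of which left a count of 2. ADU-S100 alone gave 0 of 28.

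A list of 12 genes known to respond to cyclic AMP, the messenger downstream of Ptger2 and Ptger4, did not move in 1 direction. In combination against untreated tumors 3 were higher, 2 were lower and 7 did not pass, with a median log2 fold change of -0.01, beside 19.6% higher and 23.6% lower of all genes, which is near the shares of the list. Nr4a3, a nuclear receptor, rose by 0.77 ± 0.15, and the cyclic AMP phosphodiesterases Pde4d and Pde4b rose by 0.51 ± 0.16 (0.32 with the summed skeletal muscle markers in the fit) and 0.43 ± 0.13. The phosphodiesterase Pde3b fell by 0.53 ± 0.08 (limma, adjusted p = 6.26e-05). Areg, an epidermal growth factor receptor ligand, fell by 1.22 ± 0.15 (limma, adjusted p = 2.68e-05), from 5169 to 10514 in untreated to 1975 to 4004 in combination tumors, with no overlap. The classical target Crem had a log2 fold change of -0.0045 with a standard error of 0.08. With anti-LTβR alone, 1 of 12 passed, Areg (-0.55 ± 0.15, adjusted p = 0.0216), beside 8.10% of all genes lower.

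These are whole tumors, in which fewer cells of a type and less RNA per cell cannot be told apart, and the mix of cell types moved with the treatment. Summed fibroblast markers (7 of 7 found) ranged from 60206 to 95076 normalized counts in untreated tumors and from 103546 to 381458 in combination tumors, with no overlap, and 6 of the 7 markers rose. Group and summed fibroblast markers therefore cannot be told apart in this comparison. Each marker sum adds normalized counts, so that the most abundant markers weigh most, and it is not a count of cells. Epithelial markers, which mark the tumor cells, were present in every tumor, and their sum fell from a median of 20190 to 10597, with 3 of 5 markers lower. Macrophage markers rose (median 12604 to 18181, 3 of 5 higher), and all 5 blood endothelial, all 5 lymphatic endothelial and all 5 T cell markers rose. Of all genes, 19.6% were higher and 23.6% lower by the same test. The counts for neutrophil markers (1 of 5 higher) and platelet markers (1 of 4 higher) were near that share. Of the mural and myofibroblast markers 4 of 5 rose (median sum 6126 to 9331), of the B cell markers 2 of 3 (median sum 54.6 to 194), and the 1 marker of all leukocytes rose by 0.59. The part of these shifts in the results above was not tested.

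Keratinocyte and skeletal muscle markers varied widely within every group. The keratinocyte sum ranged from 2287 to 35309 in untreated and from 1327 to 53108 in combination tumors, and its median ran in the same order as the Ptges median in untreated (11980) and combination tumors (18709). The 4 combination tumors with the highest Ptges (745 to 936) were the 4 with the highest keratinocyte sums (29669 to 53108). A fit of these groups that held the keratinocyte sum, chosen after the data were seen, gave Ptges a value of 0.58 (limma, adjusted p = 0.000184). In that fit the same 6 genes were higher and Ptgs1 lower. The fibroblast sum did not overlap between these groups and was not put in a fit. The part of the cell mix in the Ptges rise was therefore not tested. The skeletal muscle sum ranged from 4211 to 91771 in untreated and from 4808 to 264834 in combination tumors, and with it in the fit Ptges rose by 0.79 and Ptgis by 1.13.

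Members and marker sums were then related across the 32 tumors after removing each group's mean, so that the differences between groups played no part. Of 150 relations, with p from 100000 permutations within groups, 14 had an adjusted p below 0.05 by both coefficients, in 7 of the 10 genes, and Ptges had the strongest. It followed the keratinocyte sum with Pearson's r of 0.823 and Spearman's rho of 0.832, and r was 0.829 without the 2 tumors farthest from the median. It also followed the fibroblast sum (r = 0.770, rho = 0.782, 0.750 without 2 tumors). The permutation p was 1e-05 for each coefficient, the smallest these permutations can give, and the adjusted p for r was 0.0005. Ptges ran against the T cell sum (r = -0.604, rho = -0.544, permutation p = 0.0003 and 0.00221, adjusted p = 0.00562 and 0.0331, r = -0.514 without 2 tumors) and against skeletal muscle (r = -0.632, rho = -0.590, permutation p = 0.00044 and 0.00101, adjusted p = 0.0066 and 0.0216, r = -0.589 without 2 tumors). It followed the mast cell sum (r = 0.623, rho = 0.596, permutation p = 0.00044 and 0.00118, adjusted p = 0.0066 and 0.0221, r = 0.525 without 2 tumors).

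Hpgd followed fibroblasts (r = 0.716, rho = 0.714, permutation p = 1e-05 and 4e-05, adjusted p = 0.0005 and 0.0012, r = 0.593 without 2 tumors), as did Hpgds (r = 0.632, rho = 0.673, permutation p = 6e-05 and 8e-05, adjusted p = 0.0015 and 0.002, r = 0.623 without 2 tumors). Ptgis and Ptger2 followed macrophages. For Ptgis r was 0.712 and rho 0.703 (permutation p = 5e-05 and 3e-05, adjusted p = 0.0015 and 0.00112), with r = 0.605 without 2 tumors. For Ptger2 r was 0.711 and rho 0.552 (permutation p = 0.00016 and 0.00301, adjusted p = 0.00343 and 0.041), with r = 0.530 without 2 tumors. Ptger3 followed adipocytes (r = 0.687, rho = 0.710, permutation p = 2e-05 and 3e-05, adjusted p = 0.00075 and 0.00112, r = 0.619 without 2 tumors).

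A further 4 relations passed. Hpgd followed blood endothelium (r = 0.563, rho = 0.574, permutation p = 0.00144 and 0.00133, adjusted p = 0.0196 and 0.0222, r = 0.604 without 2 tumors) and adipocytes (r = 0.531, rho = 0.536, permutation p = 0.00506 and 0.00346, adjusted p = 0.0446 and 0.0432, r = 0.586 without 2 tumors). Hpgds followed keratinocytes (r = 0.504, rho = 0.505, permutation p = 0.00411 and 0.00492, adjusted p = 0.0429 and 0.0469, r = 0.609 without 2 tumors), as Ptges did. Ptger4 followed B cells (r = 0.525, rho = 0.530, permutation p = 0.00324 and 0.00409, adjusted p = 0.0405 and 0.0469, r = 0.525 without 2 tumors). No marker sum had an adjusted p below 0.05 by both coefficients for Ptgs1, Ptgs2 or Ptger1.

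**Figure D5:**
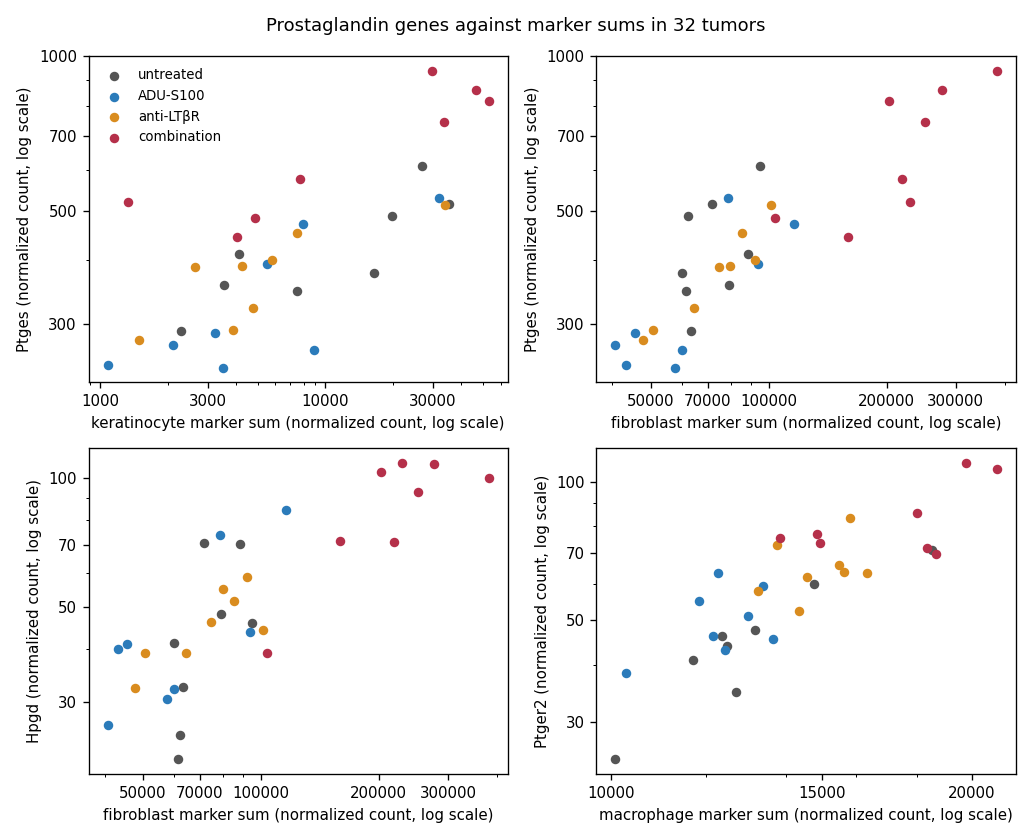
Normalized counts of Ptges, Hpgd and Ptger2 (vertical axes, log scale) against summed keratinocyte, fibroblast or macrophage markers (horizontal axes, log scale) in 32 tumors, coloured by group. Ptges was higher in tumors with a higher keratinocyte sum, and the fibroblast sums of combination tumors, from 103546 upward, lay above those of all untreated tumors.

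Among the 10 genes themselves, 45 pairs were compared in the same way. Hpgds and Hpgd (r = 0.690, rho = 0.717), Ptges and Hpgds (r = 0.687, rho = 0.656) and Ptges and Hpgd (r = 0.629, rho = 0.660) varied together, with permutation p for r of 7e-05, 9e-05 and 0.00033 and adjusted p of 0.00202, 0.00202 and 0.00495, and r of 0.733, 0.599 and 0.598 without 2 tumors. Ptgis and Ptger2 formed the other pair (r = 0.626, rho = 0.618, permutation p = 0.00135 and 0.0007, adjusted p = 0.0152 and 0.00787, r = 0.612 without 2 tumors). Ptgs2 and Ptges, the pair usually described as acting together, had r = 0.229 and rho = 0.226 (permutation p = 0.237 and 0.239, adjusted p = 0.592 and 0.686) and r = 0.0995 without 2 tumors.

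The genes whose levels ran most like each member over the 32 tumors, out of 17648 compared and again within groups, are given as a description. Ptges was closest to Kazn (r = 0.909, rho = 0.894) and Stard5 (r = 0.877), and Kazn was also among the 2 closest to Hpgds (r = 0.810), after Ddr2 (r = 0.813), which encodes a collagen receptor. Ptgis was closest to Naalad2 (r = 0.828) and the complement gene C3 (r = 0.810), and Hpgd to Lgi2 (r = 0.827) and Hoxc8 (r = 0.819). Ptgs1 was closest to Klf3 (r = 0.781) and Emp2 (r = 0.765), and Ptgs2 to Arl5b (r = 0.729) and Inhba (r = 0.674), the gene of activin A. Ptger1 was closest to Crmp1 (r = 0.661) and Kctd17 (r = 0.642), Ptger2 to Rnf130 (r = 0.791) and Taldo1 (r = 0.789), Ptger3 to Chrdl1 (r = 0.781) and Serpina3c (r = 0.777), and Ptger4 to Fzd1 (r = 0.735) and Il6st (r = 0.720).

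The 32 libraries held between 12762453 and 15591986 recovered reads (median 14932388.5), with like ranges in the 4 groups. In anti-LTβR tumors the SD of Ptger4 (13.8 on a mean of 199) and of Ptger1 (12.3 on a mean of 158) was close to what counting error alone would give, the square root of the mean number of reads. No library repeated another, the highest correlation between any library and its nearest being 0.985.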

How the data were processed

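Bulk poly(A) RNA-seq of 32 subcutaneous KPC tumors was analysed in the 4 groups of 8 given by the sample labels. The values the authors deposited are a signal, reads per gene divided by a size factor per library. The labels name mm39 and, per the submitters' processing notes, cutadapt 1.9, FastQC, HISAT2, StringTie, STAR, Partek, DESeq2 and edgeR. Which aligner made each table was not settled. Which strand was counted is not given in the sources used here. In the larger table the authors deposited (52 libraries, 27894 genes), values are whole multiples of a step, from which whole reads were recovered (100% within 0.1 of a whole number), although in some libraries the step lies too near 1 to be told from rounding. Per-sample columns left unused number 0. The authors also deposited enrichment scores and p-values of gene sets, which were not used.

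Each of 6 comparisons was fitted with limma 3.58.1 (R 4.3.3, trend) on log2(value + 1) over its own 16 tumors, and the interaction over all 32. Genes were filtered with filterByExpr of edgeR 4.0.16 (minimum 10), and p-values were adjusted over all genes that passed. Alternatives were a pseudocount of 0.5, no filter, at least 10 in every library, a joint fit, a replicate block, edgeR and DESeq2 1.42.0 on recovered reads, a 2-fold limit, each tumor left out in turn in 4 of the comparisons, and, chosen after the data were seen, keratinocyte or skeletal muscle marker sums as a covariate. The scripts were tested on simulated data. The members, lists and motifs were chosen with earlier results of these data known. The genes named are the 10 members, the listed genes that passed in combination or anti-LTβR against untreated tumors, examples from the lists that did not pass, and the 2 genes most like each member by Pearson's r of log2 values centred on group means. Genes to be compared across lengths were divided by GENCODE exon length, and positions are of GRCm38 by gene identifier. Promoter sequences are from RefSeq (GRCm38.p6), with an entry for 8 of 10 members. Ptgis and Ptger1 had none. The full genotype of the KPC line and some overlapping genes are not reported here. Other libraries, 15 with contradicting labels and 5 of the combination in a second experiment, entered no comparison. Precision is limited by counting error and by the spread between tumors.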

Additional observations from a re-analysis of the deposited data

Results flagged for a closer look

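The effect of ADU-S100 on 3 members differed with and without the antibody by the interaction test (limma). The term was 1.15 for Ptges, 1.22 for Ptgis and -0.37 for Ptgs1. With the summed keratinocyte markers in the fit the Ptges term was 0.71.

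One tumor stood apart from the other 7 of its group. Ptgis was 161 normalized counts in anti-LTβR tumor 6 and between 61.3 and 107 in the other tumors of that group, a gap of 0.545 of the whole range. It was the 1 case in 40 groups examined, where chance gives about 1 in 20.

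In the 20 libraries of the second experiment, which entered no comparison, 9 of the 10 members had reads in every library. Ptger3 was at 0 in 1 of them, combination library 3, which had 8716257 recovered reads.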

How the results depend on the processing

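In combination against untreated tumors, 7 members passed in every alternative except 6 with the skeletal muscle covariate, 1 with the 2-fold limit and 6 to 7 when single tumors were left out. For anti-LTβR against untreated the count of 1 became 0 without the filter on low values, with the replicate block, by edgeR with TMM or RLE scaling, with either covariate and with the 2-fold limit, and was 0 to 1 without single tumors. For ADU-S100 against untreated it was 0 throughout. For the combination against anti-LTβR it was 6, 4 with a joint fit or the keratinocyte covariate, 5 without the filter or with the replicate block, 4 to 6 without single tumors and 0 with the 2-fold limit, which left 1 against ADU-S100 and 0 between the single agents. Further eicosanoid genes in combination against untreated tumors numbered 15, 12 to 18 without single tumors and 5 with the 2-fold limit. With anti-LTβR alone they numbered 7, 2 to 7 without single tumors, 4 without the filter or with either covariate, and 0 with the 2-fold limit. Cyclic AMP response genes numbered 5 and 1, the first 5 to 6 and the second 1 without single tumors. The 2-fold limit left 1 and 0, and the second was 0 with the replicate block and with the skeletal muscle covariate. Ptges with anti-LTβR alone had a log2 fold change of -0.15 that became 0.0233 with the keratinocyte covariate, neither past the threshold. The cause of these changes was not tested. The 2-fold limit can only remove calls by construction.

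The same-numbered pairs correlated over 0.1 in 4, 3, 6, 5, 2 and 3 of 8 cases in the 6 comparisons, never in every pair, so the numbers were not taken as pairs. The replicate block ended the calls on Ptger2 in anti-LTβR against untreated tumors (limma, adjusted p = 0.0631) and in combination against anti-LTβR tumors (0.0823). It ended no other member's call, and not that on Ptger2 in combination against untreated tumors. Ptger3 could not be tested in most comparisons with at least 10 counts in every library. Ptger3 had the fewest reads of the members, which limits its precision.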

Other observations

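The second experiment was read for the same genes, in the normalization of the larger table. One of its 5 combination libraries, number 3, stands apart in depth, with 8716257 recovered reads where the other 4 held 18028314 to 18789131. In the 5 combination libraries Ptges ranged from 437 to 1401 normalized counts (median 573), Ptgis from 80.6 to 314 (median 130), Hpgd from 15.1 to 833 (median 111) and Ptger2 from 41.6 to 96.4 (median 73.5). In the 15 libraries whose labels contradict each other Ptges ranged from 228 to 806 (median 279), Ptgis from 21.8 to 518 (median 59.9), Hpgd from 15.8 to 501 (median 40.5) and Ptger2 from 30.0 to 152 (median 71.1). Ptgs1 ranged from 657 to 1591 (median 1095) and from 703 to 2285 (median 1670), and Ptgs2 from 178 to 749 (median 487) and from 238 to 1147 (median 517), in this order. Several extremes of the combination set are values of library 3, namely Ptges at 1401, Ptgis at 314, Ptgs2 at 178, Ptger2 at 41.6, Hpgd at 15.1 (4 reads) and Ptger1 at 986 (261 reads). In the other 4 libraries Ptges ranged from 437 to 720 (median 573), Ptgis from 80.6 to 130 (median 118), Ptgs2 from 326 to 749 (median 546), Ptger2 from 58.2 to 96.4 (median 78.5), Hpgd from 51.3 to 833 (median 140) and Ptger1 from 36.7 to 167 (median 106).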
